A study of Mus musculus with 9 samples.

Results

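Immediate early genes are the genes that a cell transcribes first after a signal, with no need for new protein synthesis. The 10 described here encode the orphan nuclear receptors Nr4a1, Nr4a2 and Nr4a3, the AP-1 subunits Fos, Fosb, Jun and Junb, the zinc finger factors Egr1 and Egr2, and the nuclear protein Ier2. They were taken by gene symbol from the array annotation, where each had 1 row, and they make up 10 of the 19938 genes tested. The members were chosen with earlier results of these data known, so the shares of all genes set beside their counts are a description. Levels of the 10 were followed over 3 populations of innate intraepithelial lymphocytes, which are lymphocytes of the gut epithelium that carry no T cell receptor.

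The cells were CD3- CD45+ lymphocytes from the epithelium of the small intestine of NOD-SCID mice, 8 to 10 weeks old, sorted to a purity over 98%. NOD-SCID mice carry the scid mutation and lack mature T and B cells, so the lymphocytes left in the gut are innate ones, and all 3 populations share that host. Sorting gave Ly49E+CD8aa+ cells, Ly49E+CD8aa- cells and Ly49E-CD8aa+ cells, and each population had 3 arrays that the labels number as biological replicates. Klra5 encodes Ly49E, one of the Ly49 receptors first known from NK cells, and CD8aa is made of paired alpha chains of CD8, the product of Cd8a. The labels do not say how many mice stand behind an array or whether the replicates were separate sorts, so p-values measure the spread between these arrays. Affymetrix Mouse Gene 1.0 ST arrays were read as log2 expression values from RMA, and 1 unit is a doubling.

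Immediate early genes are switched on by factors that already sit in the resting cell. SRF with its ELK partners binds CArG boxes, CREB binds cyclic AMP response elements (CRE), and NFAT and MEF2 answer to calcium. Most of their mRNAs decay within a short time, and their proteins act as transcription factors on later genes such as cytokines. In lymphocytes they are known to follow signals of activating receptors and cytokines, and Nr4a1 is widely used as a reporter of antigen receptor signals in T and B cells. The same genes are also known to respond to enzymatic digestion of a tissue and to cell sorting.

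Promoter windows were set beside the levels as a description, and a part of their sites in the levels was not tested. Windows of 300 bases, 250 before and 50 after the transcription start, were taken from RefSeq on GRCm38.p6 for 8 of the 10 genes, in 12 windows. The window of Egr1 was not used here, and Ier2 had no entry. Capitals mark each match to the CRE half-site TGACG on either strand, which reads CGTCA on the other strand, and to the CArG box, which occurs below in the Egr2 window. All sequences run 5′ to 3′ on the strand of the gene, and the windows of the Nr4a family come first.

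Nr4a1 (chr15:101266596-101266895, plus strand): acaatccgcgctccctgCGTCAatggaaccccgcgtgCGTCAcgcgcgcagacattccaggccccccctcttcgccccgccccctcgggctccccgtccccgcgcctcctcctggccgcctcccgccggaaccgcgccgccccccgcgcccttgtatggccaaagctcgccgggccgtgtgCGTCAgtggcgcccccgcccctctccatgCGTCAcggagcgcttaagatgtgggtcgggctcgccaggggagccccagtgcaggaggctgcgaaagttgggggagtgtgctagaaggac

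Nr4a2 (chr2:57123954-57124253, minus strand): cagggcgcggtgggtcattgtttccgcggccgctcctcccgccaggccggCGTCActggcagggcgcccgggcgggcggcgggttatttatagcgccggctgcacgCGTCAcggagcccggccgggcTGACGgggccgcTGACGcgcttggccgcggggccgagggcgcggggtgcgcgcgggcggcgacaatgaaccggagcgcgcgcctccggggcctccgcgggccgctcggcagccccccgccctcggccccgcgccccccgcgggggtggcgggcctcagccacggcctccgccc

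Nr4a3 (chr4:48045055-48045354, plus strand): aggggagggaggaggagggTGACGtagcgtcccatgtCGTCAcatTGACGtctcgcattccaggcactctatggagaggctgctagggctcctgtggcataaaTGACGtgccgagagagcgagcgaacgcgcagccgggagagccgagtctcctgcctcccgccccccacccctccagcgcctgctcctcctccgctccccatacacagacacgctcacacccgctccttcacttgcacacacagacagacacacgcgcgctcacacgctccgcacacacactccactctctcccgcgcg

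Each of the 3 Nr4a windows held 4 half-sites. Counted in bases from the start, with negative positions before it, they began at -233, -213, -69 and -40 in Nr4a1, at -200, -144, -123 and -111 in Nr4a2, and at -231, -213, -205 and -147 in Nr4a3. Of 32851 RefSeq windows of the same length, 20.8% held at least 1 half-site and 0.231% held 4 or more. The Fos and Fosb windows follow as examples of AP-1 genes that lay with Nr4a1 in the levels, and the Egr2 window follows because Egr2 did not. Jun also lay with Nr4a1, and its window, which held no half-site, is not printed.

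Fos (chr12:85473640-85473939, plus strand): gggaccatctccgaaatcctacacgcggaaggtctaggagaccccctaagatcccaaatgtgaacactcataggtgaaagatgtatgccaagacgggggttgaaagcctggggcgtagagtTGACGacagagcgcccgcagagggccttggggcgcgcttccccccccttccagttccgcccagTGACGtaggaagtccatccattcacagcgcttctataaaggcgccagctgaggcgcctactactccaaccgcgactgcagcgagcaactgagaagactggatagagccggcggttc

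Fosb (chr7:19309996-19310295, minus strand): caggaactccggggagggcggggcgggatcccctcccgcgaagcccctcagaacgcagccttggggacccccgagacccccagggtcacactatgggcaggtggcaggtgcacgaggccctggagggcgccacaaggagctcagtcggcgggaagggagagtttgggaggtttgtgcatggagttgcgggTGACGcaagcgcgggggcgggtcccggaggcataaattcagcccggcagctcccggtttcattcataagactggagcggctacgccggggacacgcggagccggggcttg

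Egr2 (chr10:67537619-67537918, plus strand): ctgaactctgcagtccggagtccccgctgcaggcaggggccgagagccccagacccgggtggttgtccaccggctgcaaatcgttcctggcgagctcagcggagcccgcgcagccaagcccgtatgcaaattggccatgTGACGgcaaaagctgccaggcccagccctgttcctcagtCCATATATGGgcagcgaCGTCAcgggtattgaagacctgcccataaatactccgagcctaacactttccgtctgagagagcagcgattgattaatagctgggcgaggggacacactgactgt

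Fos had half-sites at -129 and -66 and Fosb had 1 at -60. This Egr2 window, 1 of 5 overlapping or neighbouring windows for that gene, held 2 half-sites and a CArG box that began at -72. CArG boxes occurred in 1.63% of all windows. Junb held 1 half-site, and the Jun window held none, so that 7 of the 8 genes had at least 1. No window of these genes matched the full CRE TGACGTCA (1.79% of all windows), the AP-1 site TGANTCA (7.81%) or the EGR site GCGTGGGCG (0.612%), each searched on both strands. A match of letters is a description and shows no binding.

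The sorted cells were checked against their markers before the members were read. Klra5 averaged 11.40 on Ly49E+CD8aa+ arrays, 11.43 on Ly49E+CD8aa- arrays and 6.59 on Ly49E-CD8aa+ arrays, and Cd8a averaged 12.55, 11.42 and 12.58 in the same order. Ly49E+CD8aa- cells thus kept a high Cd8a transcript. Cd8b1, which encodes the CD8 beta chain, averaged 5.28, 8.34 and 5.30 in that order and so was highest in the cells sorted as CD8aa-. Transcripts of Cd3e were high in all populations, at 11.75, 10.70 and 11.67 in the same order, although the cells were sorted as CD3-. Of 12 enterocyte markers, none passed the test in any of the 3 comparisons. The mean level of those markers ran over 8.44 to 8.89, 8.13 to 8.99 and 8.13 to 8.92 on the arrays of Ly49E+CD8aa+, Ly49E+CD8aa- and Ly49E-CD8aa+, against array medians over all rows of 5.76 to 5.82. Replicate 1 had the highest enterocyte mean in each population.

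Nr4a1, the receptor that marks recent antigen receptor signals in T cells, was the member with the widest gap between populations. It read 7.40, 7.45 and 7.20 on the Ly49E+CD8aa+ arrays, 9.85, 9.43 and 9.64 on the Ly49E+CD8aa- arrays and 7.54, 7.23 and 7.90 on the Ly49E-CD8aa+ arrays. Every Ly49E+CD8aa- array lay above all 6 arrays of the CD8aa+ populations, which overlapped each other. Means were 7.35 ± 0.135, 9.64 ± 0.209 and 7.56 ± 0.338 in that order of populations (SD, n = 3 each).

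Nr4a2, a close relative that binds the same DNA elements, gave no such gap. Its values were 9.34, 9.48 and 8.996 on Ly49E+CD8aa+ arrays, 8.91, 9.12 and 8.95 on Ly49E+CD8aa- arrays and 9.16, 9.15 and 9.47 on Ly49E-CD8aa+ arrays. The Ly49E+CD8aa- arrays lay below those of Ly49E-CD8aa+ by a narrow margin and overlapped those of Ly49E+CD8aa+. Nr4a3, the other relative, read 8.08, 8.03 and 8.44 on Ly49E+CD8aa+ arrays, 8.52, 8.34 and 8.53 on Ly49E+CD8aa- arrays and 8.27, 8.16 and 8.22 on Ly49E-CD8aa+ arrays. Its Ly49E+CD8aa- arrays were above those of Ly49E-CD8aa+ and overlapped those of Ly49E+CD8aa+.

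The FOS subunits of AP-1, which bind DNA only as dimers with JUN proteins, were highest in Ly49E+CD8aa-. Fos read 8.45, 7.88 and 7.65 on Ly49E+CD8aa+ arrays, 9.31, 9.20 and 8.96 on Ly49E+CD8aa- arrays and 7.75, 7.85 and 8.59 on Ly49E-CD8aa+ arrays. Fosb read 8.71, 7.97 and 7.60 on Ly49E+CD8aa+ arrays, 9.47, 9.53 and 9.64 on Ly49E+CD8aa- arrays and 8.37, 7.89 and 8.71 on Ly49E-CD8aa+ arrays. For both genes the Ly49E+CD8aa- arrays lay above the other 6 arrays, which spread over more than those 3. Fosb had an SD of 0.565 on Ly49E+CD8aa+ arrays, 0.0839 on Ly49E+CD8aa- arrays and 0.413 on Ly49E-CD8aa+ arrays.

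The JUN subunits, which can also pair among themselves, moved over a narrower range. Jun read 9.49, 9.64 and 9.59 on Ly49E+CD8aa+ arrays, 9.85, 9.89 and 10.05 on Ly49E+CD8aa- arrays and 9.39, 9.47 and 9.29 on Ly49E-CD8aa+ arrays. The arrays of Jun fell into 3 separate ranges, Ly49E+CD8aa- on top, then Ly49E+CD8aa+ and then Ly49E-CD8aa+. Junb read 8.79, 8.46 and 8.47 on Ly49E+CD8aa+ arrays, 9.19, 8.87 and 8.75 on Ly49E+CD8aa- arrays and 8.47, 8.44 and 8.70 on Ly49E-CD8aa+ arrays. Its Ly49E+CD8aa- arrays were above those of Ly49E-CD8aa+ and overlapped those of Ly49E+CD8aa+ at 1 array.

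The EGR factors, which bind GC-rich elements and act downstream of ERK signals, had no gap between any of the populations. Egr1 read 8.88, 8.84 and 8.53 on Ly49E+CD8aa+ arrays, 8.89, 8.84 and 8.45 on Ly49E+CD8aa- arrays and 8.86, 8.55 and 8.52 on Ly49E-CD8aa+ arrays. Egr2 read 9.41, 9.43 and 9.04 on Ly49E+CD8aa+ arrays, 9.01, 9.09 and 9.08 on Ly49E+CD8aa- arrays and 9.18, 9.11 and 8.66 on Ly49E-CD8aa+ arrays. For both genes the ranges of all 3 populations overlapped, and Egr2 had its highest mean in Ly49E+CD8aa+. Ier2, a nuclear protein induced by growth factors, read 7.57, 7.08 and 7.68 on Ly49E+CD8aa+ arrays, 8.24, 8.01 and 8.01 on Ly49E+CD8aa- arrays and 7.45, 7.33 and 7.51 on Ly49E-CD8aa+ arrays. All 3 Ly49E+CD8aa- arrays of Ier2 lay above the other 6.

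**Figure D1:**
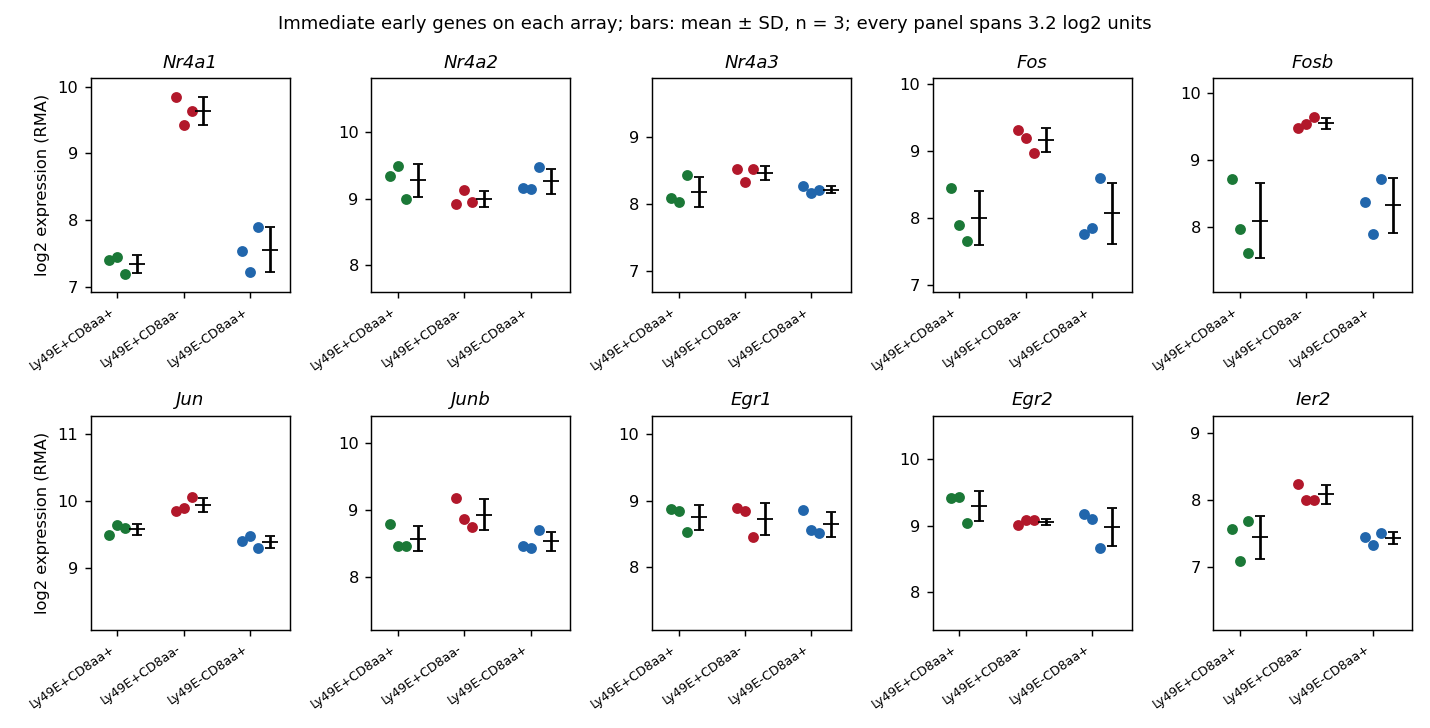
Log2 expression (RMA, vertical axis) of each of the 10 immediate early genes on each array, with the 3 populations on the horizontal axis, dots for arrays and bars for the mean ± SD of 3 arrays; each panel has its own axis position and the same span. Nr4a1, Fos, Fosb, Jun and Ier2 have their 3 Ly49E+CD8aa- arrays above the other 6, whereas Nr4a2, Nr4a3, Junb, Egr1 and Egr2 do not.

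The first comparison set CD8aa+ against CD8aa- cells within the Ly49E+ lymphocytes. Nr4a1 and Fosb were lower in Ly49E+CD8aa+ cells than in Ly49E+CD8aa- cells, Nr4a1 by 4.89-fold and Fosb by 2.74-fold, and no member was higher. The log2 difference of Nr4a1, Ly49E+CD8aa+ minus Ly49E+CD8aa-, was -2.29 (standard error, SE, 0.169; 95% interval -2.67 to -1.91; adjusted p = 0.000109), in limma's moderated test with Benjamini-Hochberg adjustment over all genes and a threshold of 0.05. That of Fosb was -1.45 (SE 0.275; interval -2.08 to -0.83; limma adjusted p = 0.033). So 2 of 10 members were called lower, against 1.22% of all genes, and none higher, against 0.476% of all genes.

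Another 3 members had every Ly49E+CD8aa+ array below every Ly49E+CD8aa- array and missed the threshold. The differences were -1.16 for Fos (SE 0.252, limma adjusted p = 0.0639), -0.64 for Ier2 (SE 0.147, adjusted p = 0.0797) and -0.36 for Jun (SE 0.0808, adjusted p = 0.0754). With Nr4a1 and Fosb, arrays did not overlap in 5 of 10 members, all lower in Ly49E+CD8aa+. Over all genes 5.52% had such a gap downwards and 7.41% upwards. Junb (-0.36, limma adjusted p = 0.402) and Nr4a3 (-0.28, adjusted p = 0.445) had smaller negative values with overlapping arrays. Nr4a2 (0.28, interval -0.03 to 0.59), Egr2 (0.23, interval -0.10 to 0.57) and Egr1 (0.02, interval -0.31 to 0.36) were on the positive side, and their intervals held 0.

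The median difference of the 10 members was -0.361, beside 0.0253 over all genes. In RNA of a sorted population, fewer cells of a type and less RNA per cell cannot be told apart. The call of Fosb was lost when any of Ly49E+CD8aa+ replicate 2 or 3, Ly49E+CD8aa- replicate 1, 2 or 3, or Ly49E-CD8aa+ replicate 1 was left out, and with the 6 arrays of the comparison alone or with every row tested (limma adjusted p 0.0706 to 0.135 over these 8 settings). Nr4a1 passed under all 19 alternatives.

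The second comparison set Ly49E+ against Ly49E- cells within the CD8aa+ lymphocytes, and here no member passed limma's test, at an adjusted p that rounds to 1 for all 10. Without adjustment, at the same threshold, Jun alone passed limma's test, and over all genes 4.18% did. Its difference, Ly49E+CD8aa+ minus Ly49E-CD8aa+, was 0.19 (SE 0.0808), with every Ly49E+CD8aa+ array above every Ly49E-CD8aa+ array. That was the 1 member of 10 without overlap upwards, against 2.88% of all genes, and none had a gap downwards, against 3.38%. Calls were few over all genes as well, with 0.0201% higher and 0.11% lower.

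The intervals show what differences these arrays could still hold between Ly49E+CD8aa+ and Ly49E-CD8aa+ cells. They reached from -0.59 to 0.17 for Nr4a1 (difference -0.21), from -0.30 to 0.32 for Nr4a2 (0.01), and from -0.28 to 0.22 for Nr4a3 (-0.03). Those of Fos (-0.64 to 0.50, difference -0.07) and Fosb (-0.85 to 0.39, difference -0.23) were the widest. For Egr2 the difference was 0.31 (interval -0.02 to 0.64), for Egr1 0.11, for Junb 0.04 and for Ier2 0.01. The median over the members was 0.0127, beside -0.000488 over all genes.

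The third comparison set Ly49E+CD8aa- against Ly49E-CD8aa+ cells, which differ in both sort markers, and it shares the 3 Ly49E+CD8aa- arrays with the first and the 3 Ly49E-CD8aa+ arrays with the second. Nr4a1 rose 4.23-fold and Jun 1.46-fold in Ly49E+CD8aa- cells, and no member fell. The log2 differences, Ly49E+CD8aa- minus Ly49E-CD8aa+, were 2.08 for Nr4a1 (SE 0.169; interval 1.70 to 2.46; limma adjusted p = 0.000193) and 0.55 for Jun (SE 0.0808; adjusted p = 0.00796). These 2 of 10 stand beside 1.35% of all genes called higher and 0.802% called lower. Both passed under all 19 alternatives.

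Fosb (1.23, limma adjusted p = 0.0648), Fos (1.09, adjusted p = 0.0714) and Ier2 (0.65, adjusted p = 0.0645) missed the threshold with arrays that did not overlap. The same held for Junb (0.40, adjusted p = 0.292) and Nr4a3 (0.25, adjusted p = 0.486), so that 7 of 10 members had every Ly49E+CD8aa- array above every Ly49E-CD8aa+ array, against 5.29% of all genes. Nr4a2 lay the other way without overlap, at -0.27 (interval -0.58 to 0.05, adjusted p = 0.57), as did 7.45% of all genes. Egr1 and Egr2 differed by 0.08 each, with intervals of -0.25 to 0.41. The members' median was 0.473, beside -0.0243 over all genes.

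**Figure D2:**
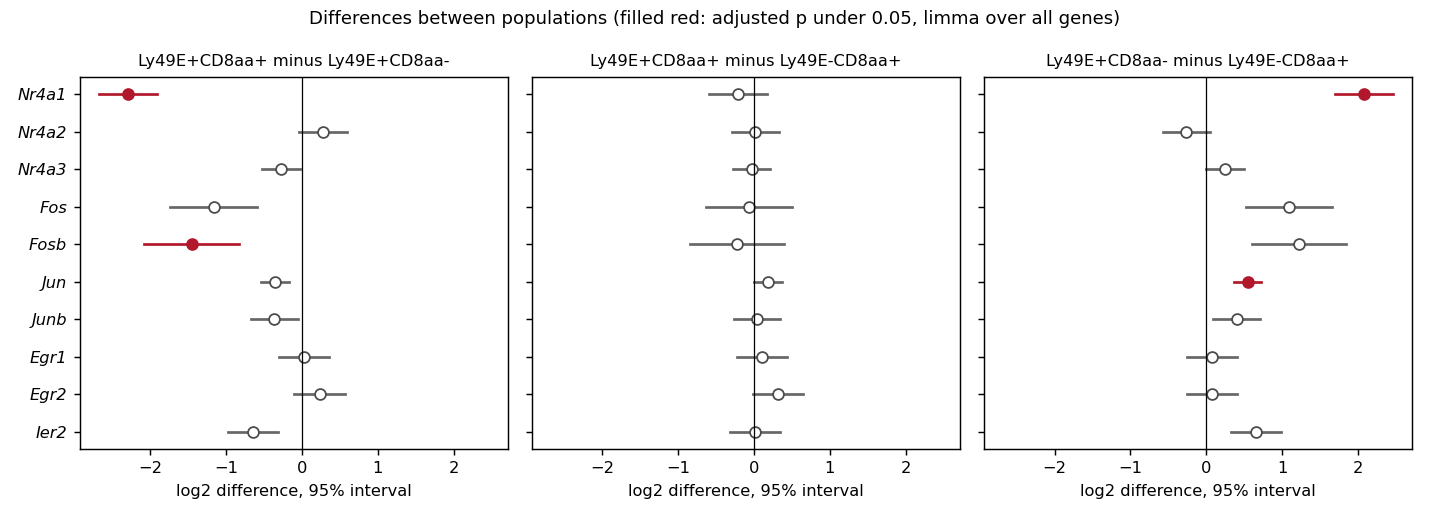
Log2 difference (horizontal axis) of each member in the 3 comparisons, first-named minus second-named population, with dots for the estimate and lines for the 95% interval from limma over 9 arrays; filled red marks an adjusted p under 0.05. Nr4a1 stands at -2.29, -0.21 and 2.08 from left to right, and Egr1 stays within 0.11 of 0 in all 3.

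Limma's F test, which asks over the 3 populations at once whether a gene differs, called Nr4a1 (adjusted p = 0.000154) and Jun (adjusted p = 0.0188), 2 of 10 members beside 2.03% of all genes. Fosb stood at an adjusted p of 0.0502, Fos at 0.079 and Ier2 at 0.0859. The count was 1 without Ly49E+CD8aa- replicate 2 or 3 or without Ly49E-CD8aa+ replicate 1, and 4 without Ly49E+CD8aa+ replicate 1.

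A further comparison, added after the values had been seen, set the mean of both CD8aa+ populations (6 arrays) against Ly49E+CD8aa- (3 arrays) in the same model. The gap of several members over these same arrays was by then known, so its counts and p-values are a description and no independent support. The added comparison called 5 members lower in the CD8aa+ populations, beside 1.6% of all genes, and none higher, beside 0.853%. These were Nr4a1 (-2.18, SE 0.147, limma adjusted p = 4.33e-05), Fosb (-1.34, SE 0.238, adjusted p = 0.0178), Fos (-1.13, SE 0.218, adjusted p = 0.0275), Ier2 (-0.65, SE 0.127, adjusted p = 0.0297) and Jun (-0.45, SE 0.07, adjusted p = 0.00826). In each of the 5 all 6 CD8aa+ arrays lay below the 3 Ly49E+CD8aa- arrays, as for 3.28% of all genes. Junb (-0.38, adjusted p = 0.2), Nr4a3 (-0.26, adjusted p = 0.307) and Nr4a2 (0.27, adjusted p = 0.436) did not pass, nor did Egr1 (-0.03, interval -0.31 to 0.26) and Egr2 (0.08, interval -0.21 to 0.36). Leaving out 1 array left 2 to 4 members. It left 2, Nr4a1 and Jun, without any of the 3 Ly49E+CD8aa- arrays, and 3 without Ly49E+CD8aa+ replicate 2 or Ly49E-CD8aa+ replicate 1 or 2.

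Members of a family were also set against each other array by array. For each array the log2 value of 1 member was taken from that of another, and these differences were compared between the 6 CD8aa+ arrays and the 3 Ly49E+CD8aa- arrays by an exact two-sided permutation test, whose smallest possible p is 0.02381. The size of such a difference on 1 array is no ratio of transcripts, since probes differ, but its change between populations is on the log2 scale. The pairs were chosen after the values had been seen, and p-values were adjusted over the 6 pairs. The gap of Nr4a1 over these same arrays was then already known, so the p-values are no independent support. The 6 CD8aa+ arrays also pool both CD8aa+ populations and are not replicates of 1 condition.

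Nr4a1 minus Nr4a2 averaged -1.81 in the CD8aa+ populations and 0.644 in Ly49E+CD8aa- cells, a change of -2.46 (exact permutation p = 0.02381, adjusted p = 0.07143). Nr4a1 minus Nr4a3 averaged -0.746 in the CD8aa+ populations and 1.18 in Ly49E+CD8aa- cells, a change of -1.92 with the same p-values. In both pairs the ranges of the groups did not overlap, so p reached the smallest value the design allows, and neither passed after adjustment. With only these pairs at that value the adjusted p could not be lower, so no conclusion is drawn from either p. Nr4a3 minus Nr4a2 changed by -0.534 (exact permutation p = 0.04762, adjusted p = 0.09524). The 3 Nr4a windows printed above hold 4 CRE half-sites each. Of these genes only Nr4a1 was called in any of the comparisons, which is no test of a difference between them. Nr4a3 lay in the same direction as Nr4a1 in the comparisons with Ly49E+CD8aa-, without passing. A part of the half-sites in the levels was not tested.

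Pairs of the other families changed less. Fosb minus Fos changed by -0.21 (exact permutation, adjusted p = 0.357), Egr2 minus Egr1 by 0.105 (adjusted p = 0.657) and Jun minus Junb by -0.0687 (adjusted p = 0.738). The design did not detect a difference there, which does not show that the members of these pairs move alike.

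Within a population the members did not rank the arrays alike. In Ly49E-CD8aa+ cells, replicate 3 was highest for 6 of 10 members and replicate 2 was lowest for 6. In Ly49E+CD8aa+ cells, replicate 3 was lowest for 6 members, and replicates 1 and 2 were highest for 4 each. In Ly49E+CD8aa- cells, replicate 1 was highest for 5 members and lowest for 4. The mean over the 10 members was 8.61, 8.43 and 8.32 on the Ly49E+CD8aa+ arrays, 9.13, 9.03 and 9.01 on the Ly49E+CD8aa- arrays and 8.44, 8.32 and 8.56 on the Ly49E-CD8aa+ arrays, so the Ly49E+CD8aa- arrays were the highest 3 of 9.

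Relatives of the members were read from lists chosen with earlier results of these data known, and are described by counts and medians. Beside every list below, 1.22% of all genes were lower and 0.476% higher in Ly49E+CD8aa+ relative to Ly49E+CD8aa- cells, with a median of 0.0253. For Ly49E+CD8aa- relative to Ly49E-CD8aa+ cells, 1.35% of all genes were higher and 0.802% lower, with a median of -0.0243. Of 11 AP-1 relatives, 1 fell in Ly49E+CD8aa+ relative to Ly49E+CD8aa- cells and none rose. This was Maff, a small MAF protein that lacks an activation domain, at -1.25 (SE 0.141, limma adjusted p = 0.00175). In Ly49E+CD8aa- relative to Ly49E-CD8aa+ cells, 2 of 11 rose, Maff at 1.16 (adjusted p = 0.0025) and Batf3, a partner of JUN proteins, at 0.83 (adjusted p = 0.0448). Batf3 lost its call without any 1 of the 9 arrays except Ly49E+CD8aa- replicate 3. The other EGR genes and the NAB corepressors, which bind EGR proteins, matched Egr1 and Egr2 in having no call. Egr3 differed by 0.04, Egr4 by -0.00, Nab1 by -0.22 and Nab2 by 0.06 in Ly49E+CD8aa+ relative to Ly49E+CD8aa- cells (limma adjusted p 0.409 to 0.994).

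Among 30 other immediate early genes, 5 fell and 2 rose in Ly49E+CD8aa+ relative to Ly49E+CD8aa- cells, with a median of -0.202. Zfp36, which binds AU-rich elements and speeds decay of mRNAs such as that of Tnf, averaged 9.65 in Ly49E+CD8aa+ and 10.65 in Ly49E+CD8aa- cells (SE of the difference 0.097, limma adjusted p = 0.000669). Its relative Zfp36l1 was at -0.64 (adjusted p = 0.0236). Gem, a small GTPase, was at -0.72 (adjusted p = 0.00898), Ier5 at -0.56 (adjusted p = 0.0364) and Gadd45b at -1.59. The 2 that rose were Errfi1, an inhibitor of the EGF receptor, at 0.75 (adjusted p = 0.0115), and Trib1, a pseudokinase, at 0.62 (adjusted p = 0.0408). Trib1 lost its call in 13 of 19 alternatives (limma adjusted p up to 0.152), Ier5 in 9 (up to 0.145) and Zfp36l1 in 5 (up to 0.0998). The count of 7 fell to 3 without Ly49E+CD8aa+ replicate 1 or Ly49E+CD8aa- replicate 3. Of the same 30, in Ly49E+CD8aa- relative to Ly49E-CD8aa+ cells, 3 rose (Gadd45b 1.88, Zfp36 0.80, Zfp36l1 0.63) and Trib1 fell by 0.67. Zfp36l1 lost this call in 6 of 19 alternatives and Trib1 in 5 (limma adjusted p up to 0.0973). That count of 4 fell to 2 without Ly49E-CD8aa+ replicate 1.

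Feedback genes, which shut off the signals that induce immediate early genes, gave 3 of 18 lower and none higher in Ly49E+CD8aa+ relative to Ly49E+CD8aa- cells, with a median of -0.307. Dusp4, a phosphatase of MAP kinases in the nucleus, was at -1.44 (SE 0.153, limma adjusted p = 0.00127), and Nfkbid, an atypical inhibitor of the NF-kappaB family, was at -0.91 (adjusted p = 0.00377). Nfkbia, the third, was at -1.24. A count of 6 of 18 rose in Ly49E+CD8aa- relative to Ly49E-CD8aa+ cells, with a median of 0.50 over the list. They were Dusp4 (1.45, adjusted p = 0.000979), Nfkbia (1.12), Nfkbid (0.92, adjusted p = 0.00303), Dusp1 (0.82), Cish (0.46, adjusted p = 0.0226), an inhibitor of cytokine signals, and Dusp5 (0.45, adjusted p = 0.0271). Dusp1 lost its call in 9 of 19 alternatives (limma adjusted p up to 0.139), Dusp5 in 8 (up to 0.109), Cish in 6 (up to 0.0943) and Nfkbia in 3 (up to 0.0587). The count of 6 fell to 2 without Ly49E+CD8aa- replicate 1 or Ly49E-CD8aa+ replicate 2, and to 3 without Ly49E-CD8aa+ replicate 3.

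The factors and kinases known to act upstream of the members showed almost no calls. Of 20 measured, which include Srf, Elk1, Creb1 and the Nfatc genes, none passed in Ly49E+CD8aa+ relative to Ly49E+CD8aa- cells (median -0.0555). In Ly49E+CD8aa- relative to Ly49E-CD8aa+ cells, Mef2c alone fell, by 0.58 (limma adjusted p = 0.019). Its call was lost without Ly49E+CD8aa- replicate 1 or 3 or Ly49E-CD8aa+ replicate 2. Transcript levels do not report the phosphorylation by which most of these proteins act.

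Cytokine and chemokine genes that activated lymphocytes transcribe after the immediate early factors moved in both directions. In Ly49E+CD8aa+ relative to Ly49E+CD8aa- cells, 4 of 14 fell and 2 rose. Ltb, a membrane partner of lymphotoxin alpha, fell by 1.87 (limma adjusted p = 4.64e-06) and Tnfsf14, known as LIGHT, fell by 1.51 (adjusted p = 0.00204), beside Csf2 at -3.75 and Tnf at -3.25. Tnfrsf9, the costimulatory receptor 4-1BB, rose by 1.15 (adjusted p = 0.00136) and Il13 rose by 0.58 (adjusted p = 0.00865). In Ly49E+CD8aa- relative to Ly49E-CD8aa+ cells, 5 of 14 rose, namely Csf2, Tnf, Ltb (2.08), Tnfsf14 (1.35) and the chemokine gene Xcl1 (0.50), while Tnfrsf9 fell by 0.65 and Il13 by 0.56. Of these calls, Tnfrsf9 was lost in 8 of 19 alternatives (limma adjusted p up to 0.118), Xcl1 in 5 (up to 0.0766) and Il13 in 1 (0.0523). The count of 7 was 4 with the 6 arrays of the comparison alone.

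Receptors and factors linked to Nr4a proteins in T cells likewise did not move one way. In Ly49E+CD8aa+ relative to Ly49E+CD8aa- cells, the inhibitory receptor gene Ctla4 (-1.83, limma adjusted p = 0.00282) and the factor Irf4 (-0.69, adjusted p = 0.014) fell, and the ectonucleotidase gene Entpd1 (0.57, adjusted p = 0.0105) and the inhibitory receptor gene Lag3 (0.48, adjusted p = 0.0196) rose, 4 of 13 in all. The count was 1 without Ly49E+CD8aa+ replicate 2 and 2 without Ly49E+CD8aa+ replicate 1 or 3 or Ly49E+CD8aa- replicate 3. Ctla4 rose by 1.57 and Entpd1 fell by 0.56 in Ly49E+CD8aa- relative to Ly49E-CD8aa+ cells. In Ly49E+CD8aa+ relative to Ly49E-CD8aa+ cells, no gene of these related lists passed limma's test.

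**Figure D3:**
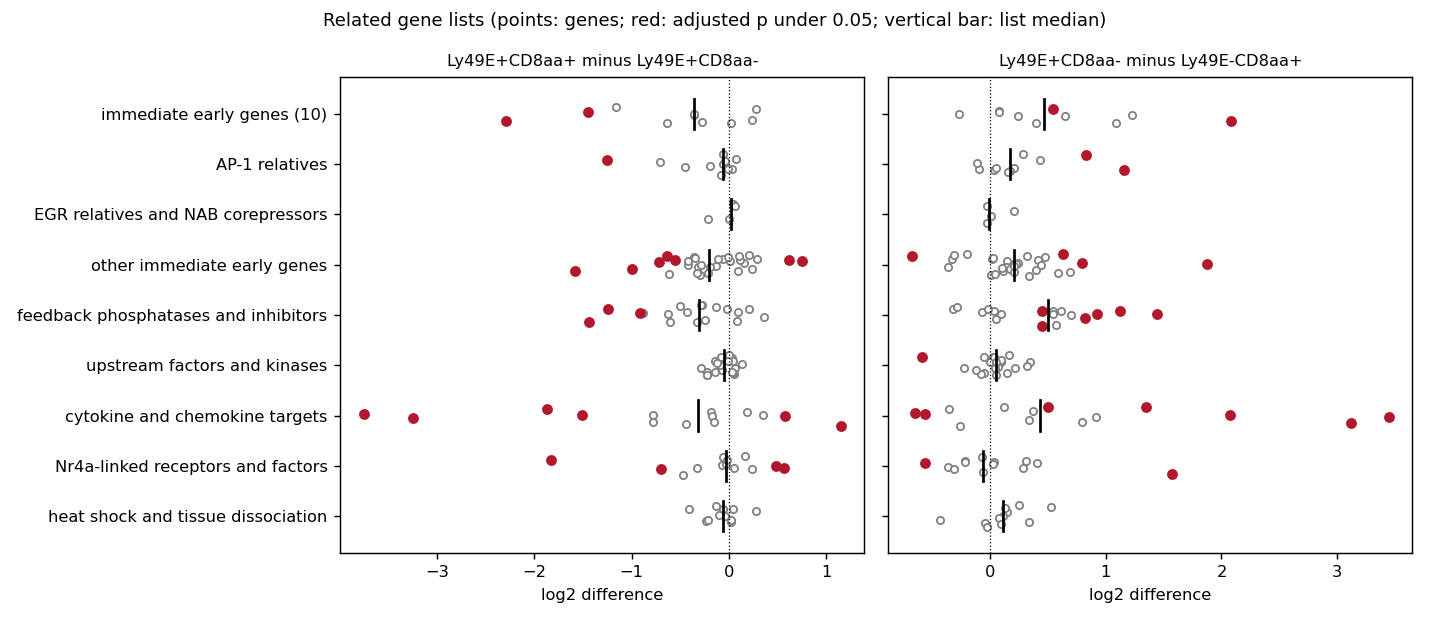
Log2 difference (horizontal axis) of each gene in the members' list and 8 other lists for the comparisons that involve Ly49E+CD8aa-, with dots for genes, red for an adjusted p under 0.05 in limma and a vertical bar for the list median. The medians of the members are -0.361 and 0.473, and those of the upstream factors and of the EGR relatives lie near 0.

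Heat shock genes were set beside the members, since the cells were released from tissue and sorted. They do not stand for the whole response to digestion, since immediate early genes, which also respond to it, were in other lists. In the added comparison, 6 of 30 other immediate early genes were lower in the CD8aa+ populations and 2 higher. Over all genes 1.6% were lower and 0.853% higher. The 11 heat shock genes measured were heat shock protein and chaperone genes and Hmox1, and none passed limma's test in any comparison. Their median difference was -0.0646 in Ly49E+CD8aa+ relative to Ly49E+CD8aa- cells and 0.119 in Ly49E+CD8aa- relative to Ly49E-CD8aa+ cells. Their mean level ran over 9.36 to 9.49 on Ly49E+CD8aa+ arrays, 9.44 to 9.57 on Ly49E+CD8aa- arrays and 9.34 to 9.47 on Ly49E-CD8aa+ arrays, so the ranges overlapped. A part of handling of the cells in the members' levels was not tested.

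Apart from dendritic cell genes, markers of other cells gave few calls in the same comparisons. None of 9 macrophage, 6 B and plasma cell, 10 mast cell and granulocyte, 12 enterocyte and 8 stromal genes passed limma's test in any of the 3 comparisons between populations. The mean of the 8 stromal genes was 6.17 to 6.24, 5.999 to 6.12 and 6.10 to 6.27 on the arrays of Ly49E+CD8aa+, Ly49E+CD8aa- and Ly49E-CD8aa+, so Ly49E+CD8aa- lay below Ly49E+CD8aa+ without overlap. All 8 had negative differences in Ly49E+CD8aa- relative to Ly49E-CD8aa+ cells, and 7 had positive ones in Ly49E+CD8aa+ relative to Ly49E+CD8aa- cells. Macrophage markers, also without overlap, had mean levels of 5.53 to 5.62, 5.40 to 5.46 and 5.54 to 5.72 on the arrays of Ly49E+CD8aa+, Ly49E+CD8aa- and Ly49E-CD8aa+. In the added comparison 1 of them, Cd68, was higher in the CD8aa+ populations than in Ly49E+CD8aa- cells (0.85, limma adjusted p = 0.0367). Itgam differed by 0.62 (limma adjusted p = 0.0626), and the other macrophage markers lay between -0.14 (Cx3cr1) and 0.08 (Cd14). The gap in the macrophage mean thus lay mainly in Cd68 and Itgam. Of 10 dendritic cell genes, H2-Aa was lower in Ly49E+CD8aa+ cells than in Ly49E+CD8aa- cells (-1.08, adjusted p = 0.0198) and Siglech was lower in Ly49E+CD8aa+ cells than in Ly49E-CD8aa+ cells (-1.98, adjusted p = 0.00099). The mean level of the 10 ran over 5.72 to 5.77, 5.93 to 5.98 and 6.20 to 6.40 on Ly49E+CD8aa+, Ly49E+CD8aa- and Ly49E-CD8aa+ arrays, without overlap. In Ly49E+CD8aa- relative to Ly49E-CD8aa+ cells, 1 of the 10 was higher and 3 were lower, beside 1.35% and 0.802% of all genes. Batf3 was higher there, and Siglech (-1.87), Cd209a (-1.10) and Clec9a (-0.73) were lower. Clec9a averaged 3.70 in Ly49E+CD8aa- and 4.42 in Ly49E-CD8aa+ cells, below the array medians over all rows of 5.76 to 5.82. The part of such other cells in the members' levels was not tested. The 12 markers of intraepithelial and innate lymphocytes moved in both directions, with 3 lower and 2 higher in Ly49E+CD8aa+ relative to Ly49E+CD8aa- cells and a median of 0.0895. The 3 lower ones were far apart. Ncr1, which encodes the NK cell receptor NKp46, averaged 4.26 on Ly49E+CD8aa+ arrays, 9.69 on Ly49E+CD8aa- arrays and 4.40 on Ly49E-CD8aa+ arrays, and Il7r, the interleukin 7 receptor, averaged 4.92, 10.37 and 6.45 in the same order. Klrk1, which encodes the activating receptor NKG2D, averaged 4.38, 9.85 and 4.65 in that order. The 2 higher ones differed little, Il2rb, the beta chain of the interleukin 2 receptor, by 0.40 (limma adjusted p = 0.0248) and Itgae, the integrin CD103, by 0.31 (adjusted p = 0.04), and the other 7 did not pass.

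**Figure D4:**
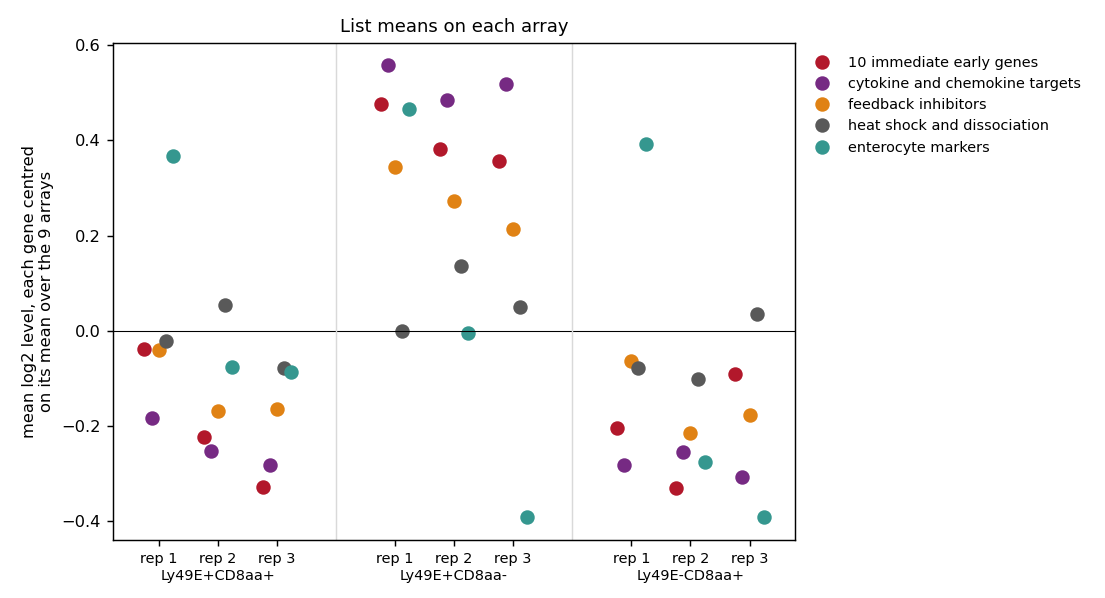
Mean log2 level of 5 gene lists on each of the 9 arrays (vertical axis, each gene centred on its own mean over the arrays), with arrays grouped by population on the horizontal axis and 1 colour per list. The members, the cytokine and chemokine genes and the feedback genes are above 0 on the 3 Ly49E+CD8aa- arrays and below 0 on the other 6, while the enterocyte markers are highest on replicate 1 of every population.

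The genes whose pattern was closest to that of Nr4a1 were found by the root mean square difference of values, each gene centred on its own mean over the 9 arrays. They were Rora (0.193), a nuclear receptor needed by group 2 innate lymphoid cells, Mgll (0.205), a monoacylglycerol lipase, Cd84 (0.231), a receptor of the SLAM family, Plekhg1 (0.231) and Samd3 (0.236). Rora averaged 6.68 on Ly49E+CD8aa+ arrays, 8.78 on Ly49E+CD8aa- arrays and 6.65 on Ly49E-CD8aa+ arrays, and the other 4 were 1.98 to 2.34 higher in Ly49E+CD8aa- cells than in Ly49E-CD8aa+ cells. Closest to the mean of the 10 members were Ssbp2 (0.0604), Trim16 (0.0714), Zfp36l1 (0.0906), Plp2 (0.0976) and Mtss1 (0.0989). Ssbp2 averaged 6.59, 7.16 and 6.60 in that order of populations. These genes were picked for their likeness, so their levels are a description.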

How the data were processed

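Total RNA of 9 sorted samples was amplified with the Ovation Pico WTA V2 kit and hybridised to Affymetrix Mouse Gene 1.0 ST arrays, per the labels. The deposited values were log2 expression values that the authors made with RMA, per the submitters' processing notes, and they ran from 1.84 to 13.8. The sources used here do not give the RMA version, build or annotation, and no detection calls were used. Of 35556 rows, 21789 had 1 gene symbol in the platform annotation, and the row with the highest mean stood for each of the 999 genes with several rows, which left 19938 genes. Groups came from the sample titles. The model of limma 3.58.1 in R 4.3.3 had a mean per population over 9 arrays (residual degrees of freedom 6, prior 3.08), no block and no filter, and was checked on simulated data. Tests were two-sided. The number of arrays limits the precision: the median SE of a difference was 0.0976.

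The members and lists were chosen with earlier results of these data known. All members were named, with up to 6 called genes of each related list, lists of 5 or fewer whole, up to 3 called cell type markers, and the 5 genes nearest in pattern to Nr4a1 and to the members' mean. Gadd45b, Nfkbia, Dusp1, Tnf and Csf2 belong to these lists. Some symbols of the lists were not analysed here. Alternatives were fits to only the 6 arrays compared, filters on low genes, repeated quantile normalization, centring on array medians, an intensity trend, a robust prior, the mean over a gene's rows, every row tested, each array left out and a replicate block. Promoter windows came from RefSeq (GRCm38.p6). No genome positions were taken from the arrays.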

Additional observations from a re-analysis of the deposited data

How the results depend on the processing

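Over 19 alternatives, Nr4a1 kept its call in both comparisons with Ly49E+CD8aa-, Jun kept its call against Ly49E-CD8aa+, and no member was called between the CD8aa+ populations. Of 570 values of the 10 members under alternatives, 528 kept direction and side of the threshold. Most of these belonged to differences that had missed the threshold and stayed there. Fosb lost its call in Ly49E+CD8aa+ minus Ly49E+CD8aa- in 8 of 19 alternatives. The count of members lower in Ly49E+CD8aa+ cells than in Ly49E+CD8aa- cells, 2 as reported, was 1 with the 6 arrays alone and 1 with every row tested, and 1 to 3 with 1 array left out. The count for Ly49E+CD8aa- against Ly49E-CD8aa+, 2 as reported, was 5 with a filter at the median of gene means, where fewer genes were tested, and 2 to 3 with 1 array left out. The count of the F test, 2 as reported, was 4 with that filter, 1 with every row tested and 1 to 4 with 1 array left out. The added comparison gave 5, and 2 to 4 with 1 array left out. Replicate numbers were not taken as pairs, since the labels give no shared batch, and no test of pairing was run. Of 9 same-number correlations of deviations, 4 were over 0.1. Those of replicate 1 were all over it (0.127 to 0.222), and each replicate 1 array correlated best with the other replicate 1 arrays, a hint from the data, whereas those of replicates 2 and 3 ran from -0.0627 to 0.123. With the replicate block, Ier2 passed in both comparisons with Ly49E+CD8aa- (limma adjusted p 0.0426 and 0.0356), members called were 3, 0 and 3, and genes called between the CD8aa+ populations were 17 in place of 26.

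Only differences that had missed the threshold changed sign, always with 1 array left out. In Ly49E+CD8aa+ minus Ly49E+CD8aa-, Egr1 ran from -0.11 to 0.13. In Ly49E+CD8aa+ minus Ly49E-CD8aa+, Nr4a2 ran from -0.0918 to 0.15, Nr4a3 from -0.16 to 0.0431, Fos from -0.30 to 0.20, Fosb from -0.54 to 0.0171, Junb from -0.072 to 0.12 and Ier2 from -0.11 to 0.19. In Ly49E+CD8aa- minus Ly49E-CD8aa+, Egr1 ran from -0.0011 to 0.22 and Egr2 from -0.0823 to 0.18. Genes called between the CD8aa+ populations, 26 as reported, were 0 with those 6 arrays alone, 15 with the filter at the median and 5 to 32 with 1 array left out. Genes called between Ly49E+CD8aa- and Ly49E-CD8aa+, 429 as reported, were 263 with the 6 arrays alone. The causes were not tested.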

Other observations

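Enterocyte markers were highest on replicate 1 of each population, with array means of 8.89, 8.45 and 8.44 on Ly49E+CD8aa+ arrays, 8.99, 8.52 and 8.13 on Ly49E+CD8aa- arrays and 8.92, 8.25 and 8.13 on Ly49E-CD8aa+ arrays. The mean over the 10 members was also highest on replicate 1 in Ly49E+CD8aa+ and in Ly49E+CD8aa- cells, and on replicate 3 in Ly49E-CD8aa+ cells. Replicate 1 was the highest array for 4, 5 and 3 of the 10 members in the same order of populations. The part of epithelial RNA in the members' levels was not tested.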
